A study of Homo sapiens with 12 samples.

Results

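The genes described here are 39 genes of glycolysis and of the response to hypoxia, of 58302 genes in the expression table of GEM-resistant and parental pancreatic cancer cell lines. They were chosen by name for their roles: glucose uptake and the glycolytic enzymes, the handling of pyruvate and lactate, the control of fructose-2,6-bisphosphate, the phosphoglucomutases, the hypoxia-inducible factors (HIF) with the hydroxylases that act on them, and known HIF target genes. All 39 were found in the table.

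RNA of 2 parental lines, BxPC-3 and CFPAC-1, and of the GEM-resistant (GR) line derived from each was sequenced with 3 libraries per line, 12 in all, and the deposited values were FPKM (fragments scaled per kilobase of gene and to a fixed number of mapped fragments). BxPC-3 and CFPAC-1 are established human pancreatic ductal adenocarcinoma lines, labelled epithelial and sensitive to gemcitabine (GEM), a nucleoside analog used against this cancer. BxPC-3-GR (labelled mesenchymal) and CFPAC-1-GR (labelled epithelial) are the resistant lines obtained from them by GEM exposure in rising steps, and the last concentration was higher for BxPC-3-GR than for CFPAC-1-GR. Each resistant line is 1 selected population. Whether the replicates came from separate cultures is not given in the sources used here, so p values measure the spread between these libraries, which may be technical. None of the sources describes an exposure to low oxygen. The sample records name RPMI medium for all lines, whereas the study's methods name IMDM for CFPAC-1, so cell line and medium, including its glucose, cannot be told apart where BxPC-3 and CFPAC-1 are compared.

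Glycolysis converts glucose to pyruvate in the cytosol, and lactate dehydrogenase and the monocarboxylate transporters then turn pyruvate into lactate and carry it out of the cell. When oxygen is low, prolyl hydroxylases of the EGLN family act less on the HIF alpha subunits, which escape degradation, bind the core letters of the hypoxia response element and raise the transcription of many glycolytic genes and of genes such as CA9 and VEGFA. Pancreatic ductal adenocarcinoma is known as a poorly perfused tumor with high glycolytic activity. HIF alpha is controlled largely at the protein level, and no protein was measured in these libraries.

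In bulk RNA, fewer cells of a type and less RNA per cell cannot be told apart. The implied depth of the libraries was 12600000 to 25200000 mapped fragments, and Spearman correlations between libraries of 1 group were 0.965 to 0.981. Epithelial and ductal markers (8 genes) summed to 838.5 to 925.3 FPKM in BxPC-3 and to 950.6 to 1040 FPKM in its resistant line, whereas CFPAC-1 had 2650 to 2920 FPKM and CFPAC-1-GR 1162 to 1354 FPKM. Among the 6 immune markers, PTPRC and CD3E were below 0.1 FPKM in every group, and the summed list lay between 38.6 and 48.5 FPKM in CFPAC-1, between 15.1 and 18.2 in CFPAC-1-GR and between 1.65 and 4.45 over BxPC-3 and its resistant line. Its members above 1 FPKM in the CFPAC-1 lines were CD14, LYZ and CD68. Fibroblast markers summed to at most 4.12 FPKM, endothelial markers to at most 0.968 and acinar and endocrine markers to at most 0.901. A gene was called up or down when its Benjamini-Hochberg adjusted p from limma, over all genes tested, was below 0.05 and its absolute log2FC was above 1, on the log2(FPKM + 1) scale, which understates the change of low genes.

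In the parental lines, the levels of the members spanned the range from housekeeping enzymes to genes near 0. In BxPC-3, ENO1 (485 ± 48.2 FPKM) and GAPDH (484 ± 30.2 FPKM) were the highest and did not differ beyond their spread, followed by PKM at 262 ± 8.22 and PGK1 at 130 ± 5.02 FPKM (SD, n = 3). In CFPAC-1, ENO1 had 1307 ± 185 FPKM, above GAPDH at 707 ± 54.7, PKM at 294 ± 21.9 and PGK1 at 230 ± 29.7 FPKM. FPKM is scaled per length but not for GC content, and the difference between these parental lines followed GC content (Spearman's rho = 0.628 over all genes). The order of genes within a line is therefore approximate where their GC content differs, as between PGK1 (43.3%) and GAPDH (58.8%). GAPDH, PGK1, PGAM1, ENO1, TPI1, PKM, LDHA and LDHB have processed pseudogenes, and how the authors assigned fragments that match several copies is not given, so their levels carry that uncertainty. Whether the library kit kept the strand is not given either, so fragments from an antisense partner cannot be told apart from those of the gene.

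In BxPC-3-GR compared with BxPC-3, a group of HIF target genes and minor glycolytic isoforms was upregulated while several of the abundant enzymes had lower levels. Of the 37 members tested (those averaging 1 FPKM or more over the 6 libraries), 8 were called up (21.6%) and 0 down, against 4.14% up and 3.62% down among all 11710 genes tested. At the adjusted p alone, 19 members were higher, 6 were lower and 12 did not pass, against 26.2% of all genes higher and 31.5% lower. The median log2FC of the members was 0.33, against -0.05 for all genes tested. The groups did not overlap in 27 members (73.0%), against 66.1% of all genes tested. BNIP3 and ANKRD37 were below the minimum.

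The largest change was that of CA9, a cell-surface carbonic anhydrase widely used as a marker of hypoxia. CA9 had 0.322, 0.0760 and 0.240 FPKM in the BxPC-3 libraries and 20.2, 21.7 and 24.6 FPKM in the BxPC-3-GR libraries. The parental values are near the detection limit, equal to about 9.3, 2.5 and 6.8 fragments at the implied depth, and every resistant library was far above every parental library. The log2FC was 4.26 (SE 0.10, adjusted p = 2.74e-06), and with a pseudocount of 0.1 it was 6.24.

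NDRG1, a stress- and hypoxia-induced gene, had 2.79, 3.14 and 3.06 FPKM in BxPC-3 and 14.3, 15.7 and 20.8 FPKM in BxPC-3-GR. The groups were well separated, and the log2FC was 2.15 (SE 0.14, adjusted p = 6.26e-05). P4HA1, a subunit of the collagen prolyl 4-hydroxylase, had 13.1, 16.0 and 12.2 FPKM in BxPC-3 and 27.4, 27.4 and 34.9 FPKM in BxPC-3-GR. Its log2FC of 1.07 (SE 0.13, adjusted p = 0.000846) was just above the criterion and was 0.99 without BxPC-3 replicate 3 and 0.95 without BxPC-3-GR replicate 3, which ended the call.

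EGLN3, the prolyl hydroxylase of HIF that is itself a HIF target, had 2.62, 2.88 and 2.76 FPKM in BxPC-3 and 10.0, 8.196 and 10.3 FPKM in BxPC-3-GR. These groups did not overlap, and EGLN3 was called up (log2FC 1.48, SE 0.09, adjusted p = 5.61e-05). EGLN1, the main HIF prolyl hydroxylase, moved less, from 5.85, 6.28 and 6.21 to 8.03, 8.63 and 8.59 FPKM (log2FC 0.40, SE 0.05, adjusted p = 0.00113). The transcript of HIF1A, the HIF alpha subunit itself, was lower in BxPC-3-GR. HIF1A had 91.2, 90.95 and 104 FPKM in BxPC-3 and 51.0, 50.9 and 52.4 FPKM in BxPC-3-GR, with a log2FC of -0.88 (SE 0.07, adjusted p = 0.000126), below the fold criterion. EPAS1, which encodes HIF2 alpha, had 12.2, 11.7 and 12.5 FPKM in BxPC-3 and 19.95, 19.2 and 11.1 FPKM in BxPC-3-GR. The third resistant library lay below the parental ones, and EPAS1 did not pass the test (log2FC 0.40, SE 0.21, adjusted p = 0.152).

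Glucose entry and upper glycolysis (10 members) held 2 calls, SLC2A1 and ALDOC. SLC2A1, the glucose transporter GLUT1, had 27.1, 25.7 and 24.4 FPKM in BxPC-3 and 53.5, 59.1 and 55.7 FPKM in BxPC-3-GR. All resistant libraries were above all parental ones, with a log2FC of 1.10 (SE 0.06, adjusted p = 4.77e-05). ALDOC, a minor aldolase, had 2.17, 1.65 and 2.19 FPKM in BxPC-3 and 6.36, 6.17 and 8.97 FPKM in BxPC-3-GR (log2FC 1.43, SE 0.15, adjusted p = 0.000404). The major aldolase ALDOA went the other way, with 68.1, 67.3 and 63.4 FPKM in BxPC-3 and 45.8, 49.6 and 51.2 FPKM in BxPC-3-GR. Its log2FC was -0.43 (SE 0.06, adjusted p = 0.00157), and the groups did not overlap. GPI, which converts glucose 6-phosphate to fructose 6-phosphate, was also lower (log2FC -0.66, adjusted p = 0.00263). PFKL, the liver phosphofructokinase, had 9.86, 10.6 and 8.81 FPKM in BxPC-3 and 12.6, 14.1 and 11.9 FPKM in BxPC-3-GR (log2FC 0.36, SE 0.09, adjusted p = 0.0137). The hexokinase HK2 was slightly higher (log2FC 0.33, adjusted p = 0.0203), and HK1, PFKM, PFKP and TPI1 did not pass the test.

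In lower glycolysis (6 members), 1 member was called. ENO2, the minor enolase best known from neurons, had 0.396, 0.571 and 0.441 FPKM in BxPC-3 and 1.23, 2.18 and 3.26 FPKM in BxPC-3-GR. The resistant libraries differed widely among themselves but all lay above the parental ones (log2FC 1.09, SE 0.23, adjusted p = 0.00714), and with a pseudocount of 0.1 the log2FC was 1.94. Without BxPC-3-GR replicate 3, the highest of them, ENO2 was below the minimum level and had no test, so the call was lost. The major enolase ENO1 was lower, at 273 ± 2.72 against 485 ± 48.2 FPKM (log2FC -0.82, SE 0.08, adjusted p = 0.00031), as was the pyruvate kinase PKM at 145 ± 7.77 against 262 ± 8.22 FPKM (log2FC -0.85, SE 0.06, adjusted p = 8.92e-05). PGK1 was slightly higher (log2FC 0.33, adjusted p = 0.00216). GAPDH, the reference of the study's quantitative PCR and western blots, had 508, 494 and 450 FPKM in BxPC-3 and 505, 518 and 506 FPKM in BxPC-3-GR. These groups overlapped, and the log2FC of 0.08 (SE 0.06) did not pass the test (adjusted p = 0.321).

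None of the 5 pyruvate and lactate members was called in BxPC-3-GR. LDHB, the lactate dehydrogenase subunit common in oxidative tissue, had 126, 132 and 119 FPKM in BxPC-3 and 81.3, 83.2 and 75.3 FPKM in BxPC-3-GR (log2FC -0.65, SE 0.07, adjusted p = 0.000373). SLC16A3, the lactate exporter MCT4, had 9.79, 9.29 and 8.87 FPKM in BxPC-3 and 14.2, 14.8 and 14.1 FPKM in BxPC-3-GR (log2FC 0.58, SE 0.06, adjusted p = 0.000293). PDK1, a kinase that inhibits pyruvate dehydrogenase, was higher too (log2FC 0.55, adjusted p = 0.000208), while LDHA and SLC16A1 did not pass the test. PFKFB4, a bifunctional enzyme that sets fructose-2,6-bisphosphate, had 0.760, 0.882 and 0.912 FPKM in BxPC-3 and 2.12, 2.26 and 2.58 FPKM in BxPC-3-GR. Its log2FC of 0.84 (SE 0.07, adjusted p = 0.000169) missed the fold criterion and was 1.35, and called, with a pseudocount of 0.1.

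Among the phosphoglucomutases, which connect glycolysis with glycogen and with sugar bisphosphates, PGM2L1 was called up. PGM2L1, a glucose 1,6-bisphosphate synthase, had 0.452, 0.544 and 0.791 FPKM in BxPC-3 and 4.98, 5.18 and 5.06 FPKM in BxPC-3-GR (log2FC 1.93, SE 0.08, adjusted p = 1.75e-05, and 2.92 with a pseudocount of 0.1). PGM1 was higher below the criterion (log2FC 0.57, adjusted p = 0.000304). PGM2 had 21.1, 21.5 and 20.8 FPKM in BxPC-3 and 18.2, 18.7 and 20.4 FPKM in BxPC-3-GR, and did not pass the test (adjusted p = 0.0814).

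Other HIF targets were mostly higher in BxPC-3-GR without a call. VEGFA, the angiogenic growth factor, had 3.64, 6.24 and 6.33 FPKM in BxPC-3 and 9.83, 9.98 and 9.83 FPKM in BxPC-3-GR (log2FC 0.80, SE 0.18, adjusted p = 0.00991). BNIP3L, a receptor for the removal of mitochondria, had 10.1, 8.24 and 9.28 FPKM in BxPC-3 and 19.2, 12.03 and 30.3 FPKM in BxPC-3-GR. The resistant libraries differed over a wide range, and the log2FC of 0.99 (SE 0.30, adjusted p = 0.0314) lay just under the criterion. It passed with a pseudocount of 0.1 (1.06), with median-of-ratios scaling (1.04), after the GC content and length correction (1.06) and without BxPC-3-GR replicate 2 (1.31). BNIP3, its relative, was near 0 in both lines, with 0.0333, 0.0886 and 0.0848 FPKM in BxPC-3 and 0.0978, 0.0872 and 0.105 FPKM in BxPC-3-GR. P4HA2 was slightly higher (log2FC 0.32, adjusted p = 0.00818), and ADM did not pass the test. Among the BxPC-3-GR libraries, replicate 3 had the highest value for CA9, NDRG1, P4HA1, BNIP3L, EGLN3, ALDOC, ENO2 and HK2. It was also highest for other members, among them HK1, GPI, PGM1 and HIF1A. It was lowest for some, among them EPAS1, LDHA, TPI1 and PFKP.

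**Figure D1:**
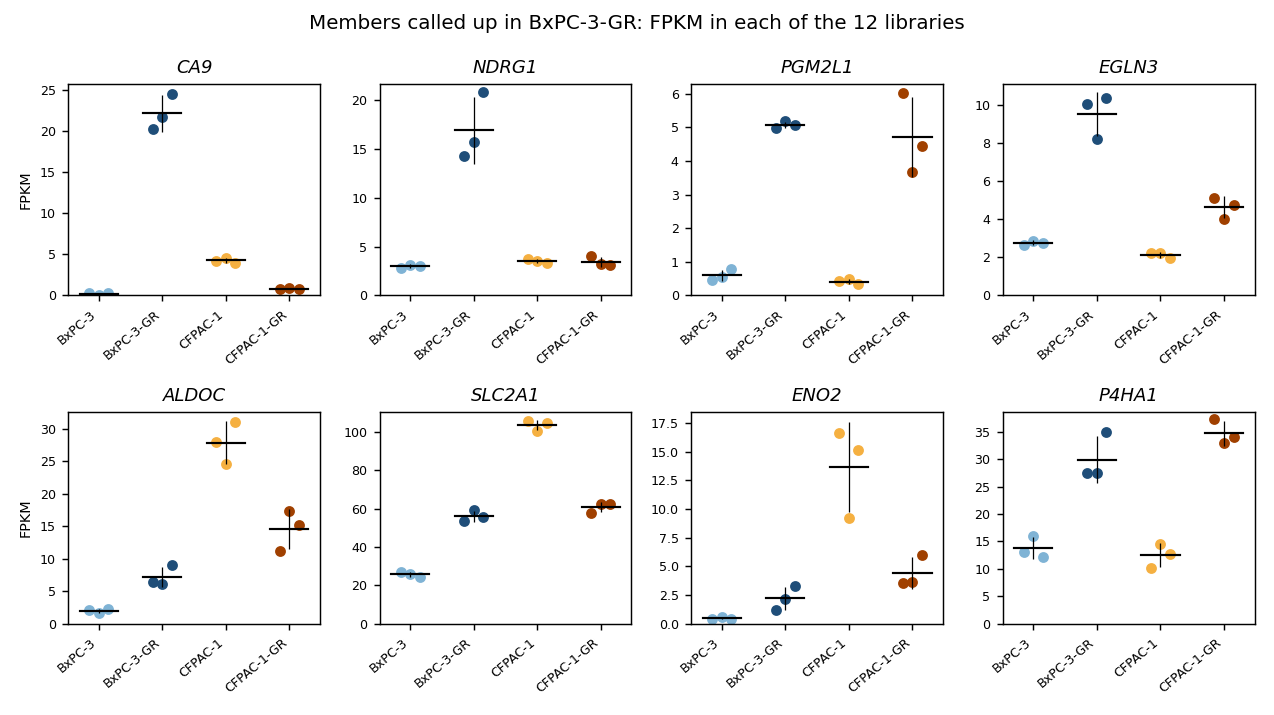
FPKM of the 8 members called up in BxPC-3-GR in each of the 12 libraries, with points for libraries, horizontal black lines for group means and vertical black lines for the SD. The BxPC-3-GR points lie above the BxPC-3 points in all 8 panels, whereas CA9, ALDOC, SLC2A1 and ENO2 are lower in CFPAC-1-GR than in CFPAC-1 and PGM2L1, EGLN3 and P4HA1 are higher.

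The promoters of the called genes were searched for the core letters of the hypoxia response element, ACGTG and GCGTG, on both strands, in RefSeq sequences of GRCh38.p14 from 250 bases before to 50 bases after each start (300 bases). The table held 35 of the 39 members with 64 promoters, and SLC16A1, VEGFA, NDRG1 and BNIP3L were not matched. Either core stood in 42 of the 64 promoters (65.6%), against 48.5% of all 35116 promoters. ACGTG stood in 39.1% of the members' promoters against 21.4% of all, and GCGTG in 40.6% against 36.5%. The members were chosen partly as known HIF targets, and starts of the same gene, some close together, were counted as separate promoters. The higher shares are therefore no finding of these data. Of the 8 members called up in BxPC-3-GR, 7 were matched, 6 held either core and 4 held ACGTG. These 4 promoters, of CA9, ENO2, ALDOC and P4HA1, are shown because they held ACGTG, so they do not stand for all 7. Those of SLC2A1 and PGM2L1 held GCGTG only, and that of EGLN3 held neither core. Capitals mark each match, read as ACGTG or GCGTG on the printed strand or as CACGT or CACGC on the other, and the 6 letters CACGTG hold overlapping matches on both strands. A match is a description of the letters and does not show that a factor bound there.

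The sequences run 5′ to 3′ on the strand of the gene. CA9 lies on chromosome 9, plus strand (chr9:35673678-35673977), ENO2 on chromosome 12, plus strand (chr12:6914330-6914629), ALDOC on chromosome 17, minus strand (chr17:28576846-28577145), and P4HA1 on chromosome 10, minus strand (chr10:73096817-73097116).
CA9: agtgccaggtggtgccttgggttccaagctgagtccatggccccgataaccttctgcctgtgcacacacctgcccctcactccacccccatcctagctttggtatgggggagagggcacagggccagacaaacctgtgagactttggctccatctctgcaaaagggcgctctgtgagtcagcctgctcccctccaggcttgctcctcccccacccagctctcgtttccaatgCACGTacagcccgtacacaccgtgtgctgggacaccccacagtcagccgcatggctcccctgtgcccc
ENO2: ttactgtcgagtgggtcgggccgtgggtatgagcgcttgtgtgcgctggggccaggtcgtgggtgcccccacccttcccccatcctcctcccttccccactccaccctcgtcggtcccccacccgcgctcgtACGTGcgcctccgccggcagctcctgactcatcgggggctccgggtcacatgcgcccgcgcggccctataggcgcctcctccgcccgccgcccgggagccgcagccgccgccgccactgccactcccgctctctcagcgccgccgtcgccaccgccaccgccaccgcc
ALDOC: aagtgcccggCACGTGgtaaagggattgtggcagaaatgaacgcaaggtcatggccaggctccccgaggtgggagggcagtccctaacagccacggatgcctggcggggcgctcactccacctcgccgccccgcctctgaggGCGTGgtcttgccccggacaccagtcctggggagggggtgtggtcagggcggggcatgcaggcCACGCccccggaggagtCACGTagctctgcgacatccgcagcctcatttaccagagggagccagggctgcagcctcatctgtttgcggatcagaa
P4HA1: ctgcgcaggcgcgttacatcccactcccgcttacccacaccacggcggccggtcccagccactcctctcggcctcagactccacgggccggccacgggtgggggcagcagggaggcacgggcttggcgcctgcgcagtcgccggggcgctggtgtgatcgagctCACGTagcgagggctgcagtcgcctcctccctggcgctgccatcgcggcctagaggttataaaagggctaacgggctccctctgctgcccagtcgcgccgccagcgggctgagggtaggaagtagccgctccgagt
CA9 held 1 match, starting 18 bases upstream of the start site, ENO2 held 1 at 118 bases upstream and P4HA1 held 1 at 86 bases upstream. ALDOC held 5, at 240, 239, 108, 45 and 28 bases upstream, of which 3 were ACGTG.

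In CFPAC-1-GR compared with CFPAC-1, the glycolytic enzymes were lower almost throughout, whereas HIF1A, the hydroxylase EGLN1, both lactate dehydrogenases and the targets BNIP3L and P4HA1 were higher. Of the 37 members tested, 9 were called up (24.3%) and 7 down (18.9%), against 20.5% up and 11.7% down among all 12051 genes tested. At the adjusted p alone, 11 members were higher and 18 lower, and 8 did not pass, against 44.6% of all genes higher and 34.9% lower. The groups did not overlap in 31 members (83.8%), close to the 82.1% of all genes tested. The median log2FC was -0.22 for the members and 0.13 for all genes tested, and median-of-ratios scaling set the latter to 0.00084. With that scaling, 7 members were called up and 12 down, and the share of up calls among all calls was 52.7% in place of 63.7%. SLC16A1 and ANKRD37 were below the minimum.

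These changes followed the base composition of the transcripts. Across the 37 tested members, log2FC fell with GC content (Spearman's rho = -0.803), as it did across all 12030 genes with a known GC content (-0.777). The points share the same 6 libraries, and genes are not independent replicates. The same value in BxPC-3-GR was 0.042 over the members. The members had a median GC content of 52.7% against 49.2% for all genes tested in the CFPAC-1 lines. After a correction of the log ratios for GC content and length, 1 member was called up in CFPAC-1-GR (ADM) and 4 were called down (ALDOA, PGK1, ENO2 and SLC16A3), against 4.69% up and 3.97% down of all genes. At the adjusted p alone 12 members were then higher and 17 lower, against 29.6% and 30.6% of all genes. In BxPC-3-GR, 9 members were called up after the correction, the same 8 and BNIP3L, and 0 down, against 4.23% and 3.45% of all genes. The summed level of the epithelial markers also differed between CFPAC-1 and CFPAC-1-GR, as given above, and the part of base composition and of cell state in these changes was not tested. Corrected values stand beside most of the uncorrected log2FC values below. Levels, shares and sums of FPKM are given as deposited.

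**Figure D2:**
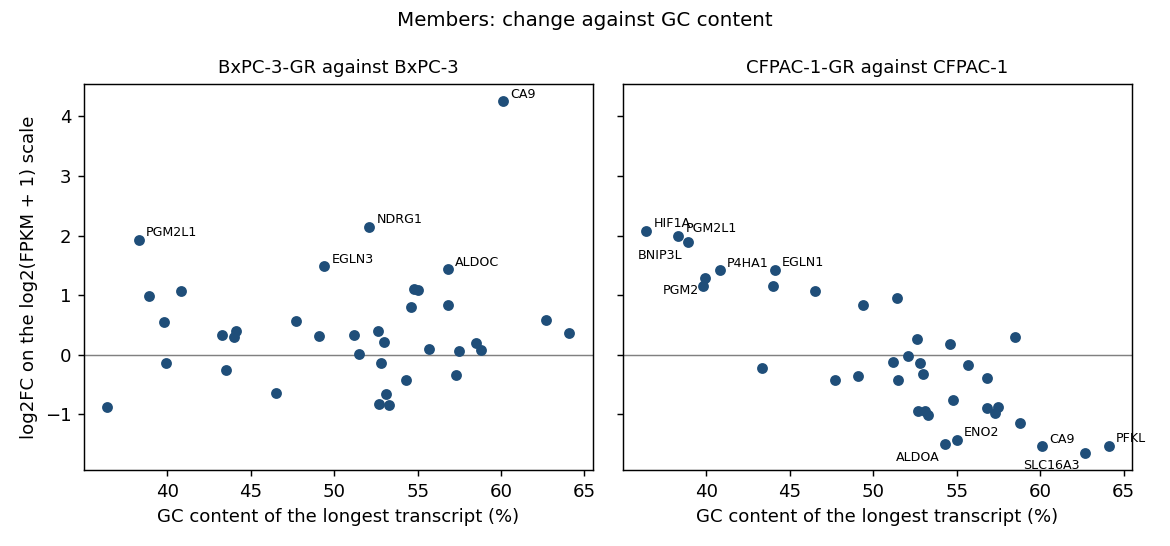
Change of each tested member (log2FC on the log2(FPKM + 1) scale) against the GC content of its longest transcript, in BxPC-3-GR (left) and CFPAC-1-GR (right), with 1 point per gene and names for changes beyond 1.2. In CFPAC-1-GR the points descend from HIF1A and PGM2L1 at low GC content to PFKL and SLC16A3 at high GC content, and no such slope is seen in BxPC-3-GR.

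Upper glycolysis was lower in CFPAC-1-GR, with 9 of 10 members passing the adjusted p downward and 2 called, and a median log2FC of -0.89. After the correction, 7 passed downward, 1 was called and the median was -0.37. ALDOA had 180, 188 and 183 FPKM in CFPAC-1 and 63.3, 64.0 and 64.7 FPKM in CFPAC-1-GR. The groups were tight and far apart, the log2FC was -1.504 (SE 0.06, adjusted p = 6.25e-06), and the call held after the correction (-1.15). PFKL had 26.0, 24.7 and 25.3 FPKM in CFPAC-1 and 7.37, 8.53 and 8.47 FPKM in CFPAC-1-GR (log2FC -1.53, SE 0.08, adjusted p = 6.78e-06), and -0.87 after the correction, below the fold criterion. SLC2A1 had 106, 100.5 and 105 FPKM in CFPAC-1 and 57.7, 62.6 and 62.5 FPKM in CFPAC-1-GR, with a log2FC of -0.76 (SE 0.07, adjusted p = 4.66e-05; -0.41 corrected). ALDOC had 27.9, 24.6 and 31.1 FPKM in CFPAC-1 and 11.2, 17.3 and 15.2 FPKM in CFPAC-1-GR (log2FC -0.90, SE 0.16, adjusted p = 0.00171), and it no longer passed after the correction (-0.28, adjusted p = 0.134). GPI, PFKP and TPI1 had log2FC values of -0.94, -0.87 and -0.98, and of -0.96, -0.33 and -0.29 after the correction. HK2 did not pass the test (log2FC -0.12, adjusted p = 0.32).

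In lower glycolysis, 3 of 6 members were called down. GAPDH had 770, 678 and 673 FPKM in CFPAC-1 and 306, 344 and 303 FPKM in CFPAC-1-GR. All resistant libraries lay below all parental ones, at 0.449 of the parental mean (log2FC -1.15, SE 0.09, adjusted p = 2.5e-05). After the correction its log2FC was -0.40 (SE 0.07, adjusted p = 0.0034). ENO2 had 16.6, 9.18 and 15.2 FPKM in CFPAC-1 and 3.56, 3.67 and 6.03 FPKM in CFPAC-1-GR (log2FC -1.43, SE 0.25, adjusted p = 0.00158; -1.03 corrected, still called). PKM had a log2FC of -1.02 (SE 0.08, adjusted p = 3.28e-05), which was -0.96 corrected, -0.96 without CFPAC-1 replicate 1 and -0.97 without CFPAC-1-GR replicate 3, each below the criterion. ENO1 was lower, at 675 ± 34.6 against 1307 ± 185 FPKM (log2FC -0.94, adjusted p = 0.000183; -0.80 corrected). PGK1, with a GC content of 43.3%, did not pass as deposited (log2FC -0.22, adjusted p = 0.092) and was called down after the correction (-1.04, adjusted p = 0.00042).

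The 4 tested pyruvate and lactate members were all called. LDHA, the subunit that favors lactate formation, had 45.3, 54.0 and 64.5 FPKM in CFPAC-1 and 130, 122 and 113 FPKM in CFPAC-1-GR (log2FC 1.15, SE 0.13, adjusted p = 0.000175; 0.37 corrected). LDHB had 33.9, 30.6 and 30.6 FPKM in CFPAC-1 and 62.6, 71.0 and 70.2 FPKM in CFPAC-1-GR (log2FC 1.08, SE 0.08, adjusted p = 2.32e-05; 0.78 corrected). Both subunits were more than 2 times as high, with no overlap between the groups. With median-of-ratios scaling the log2FC of LDHA was 0.99 and that of LDHB 0.92. SLC16A3 was lower, from 47.5, 48.2 and 44.8 FPKM in CFPAC-1 to 13.9, 15.02 and 14.0 FPKM in CFPAC-1-GR. Its log2FC was -1.65 (SE 0.07, adjusted p = 6.25e-06), and it was still called after the correction (-1.02). PDK1 had a log2FC of 1.16 (adjusted p = 1.29e-05), which turned to -0.24 after the correction. Its group means were low, 0.923 FPKM in CFPAC-1 and 3.30 FPKM in CFPAC-1-GR, so this turn may be an overcorrection. PFKFB4 had 6.05, 5.30 and 4.75 FPKM in CFPAC-1 and 4.22, 3.78 and 3.45 FPKM in CFPAC-1-GR (log2FC -0.40, adjusted p = 0.00896), which was 0.032 after the correction. PFKFB3 did not pass the test.

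HIF1A was upregulated in CFPAC-1-GR. It had 18.2, 22.4 and 20.7 FPKM in CFPAC-1 and 94.9, 79.6 and 95.2 FPKM in CFPAC-1-GR. Every resistant library was above every parental one, with a log2FC of 2.08 (SE 0.11, adjusted p = 7.34e-06). HIF1A also had the lowest GC content of the members (36.4%), and after the correction its log2FC was 0.83 (SE 0.09, adjusted p = 0.000448), below the fold criterion. EGLN1 had 5.06, 5.56 and 5.03 FPKM in CFPAC-1 and 17.4, 14.5 and 15.3 FPKM in CFPAC-1-GR (log2FC 1.43, SE 0.09, adjusted p = 1.01e-05; 0.62 corrected). EGLN3 had 2.25, 2.20 and 1.96 FPKM in CFPAC-1 and 5.12, 4.00 and 4.76 FPKM in CFPAC-1-GR, with a log2FC of 0.84 (adjusted p = 0.000146; 0.59 corrected) and 1.08, called, with a pseudocount of 0.1. EPAS1 did not pass the test (log2FC 0.26, adjusted p = 0.132).

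The phosphoglucomutases rose in 2 of 3 members. PGM2L1 had 0.421, 0.475 and 0.348 FPKM in CFPAC-1 and 6.01, 3.67 and 4.44 FPKM in CFPAC-1-GR (log2FC 1.99, SE 0.15, adjusted p = 2.11e-05; 0.65 corrected). With a pseudocount of 0.1 its log2FC was 3.202. PGM2 had 2.81, 2.60 and 2.42 FPKM in CFPAC-1 and 7.98, 7.91 and 7.60 FPKM in CFPAC-1-GR (log2FC 1.29, SE 0.07, adjusted p = 7.71e-06; 0.27 corrected). PGM1 was lower (log2FC -0.42, adjusted p = 0.000793; -0.68 corrected).

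The HIF targets divided in CFPAC-1-GR. BNIP3L had 3.35, 4.03 and 4.41 FPKM in CFPAC-1 and 21.3, 17.1 and 13.7 FPKM in CFPAC-1-GR (log2FC 1.88, SE 0.16, adjusted p = 4.09e-05; 0.77 corrected). P4HA1 had 10.2, 14.6 and 12.6 FPKM in CFPAC-1 and 37.2, 32.9 and 34.0 FPKM in CFPAC-1-GR (log2FC 1.42, SE 0.13, adjusted p = 5e-05; 0.51 corrected). CA9 was lower, with 4.24, 4.58 and 3.95 FPKM in CFPAC-1 and 0.769, 0.893 and 0.768 FPKM in CFPAC-1-GR. Its groups did not overlap, and its log2FC was -1.54 (SE 0.07, adjusted p = 6.35e-06; -0.62 corrected). BNIP3 had 19.4, 20.02 and 17.8 FPKM in CFPAC-1 and 42.1, 37.6 and 34.4 FPKM in CFPAC-1-GR, just under the fold criterion before and after the correction (log2FC 0.96 and 0.98, adjusted p = 7.52e-05 and 0.000285). NDRG1 had 3.72, 3.55 and 3.28 FPKM in CFPAC-1 and 4.01, 3.19 and 3.12 FPKM in CFPAC-1-GR, with overlapping groups and a log2FC of -0.03 (SE 0.10, adjusted p = 0.786). VEGFA did not pass either, with CFPAC-1-GR libraries spread over 11.5, 9.21 and 5.53 FPKM. ADM, the vasodilator peptide adrenomedullin, had a log2FC of 0.30 that did not pass as deposited (adjusted p = 0.0858) and of 1.05, called, after the correction. Its levels were low, at 1.12 ± 0.39 FPKM in CFPAC-1 and 1.58 ± 0.20 FPKM in CFPAC-1-GR, and the groups overlapped. This call came from the correction and may be an overcorrection.

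**Figure D3:**
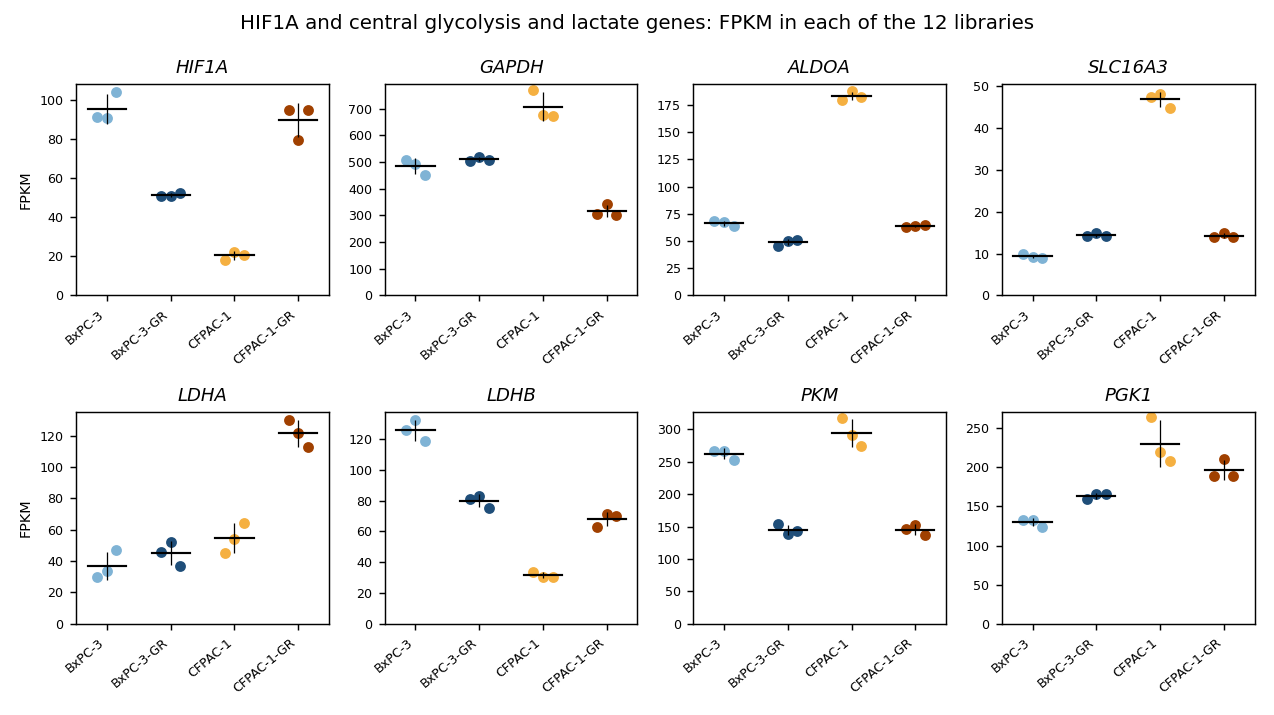
FPKM of HIF1A, 4 glycolytic enzymes (GAPDH, ALDOA, PKM, PGK1), the lactate exporter SLC16A3 and the lactate dehydrogenases LDHA and LDHB in each of the 12 libraries, with points for libraries, horizontal lines for group means and vertical lines for the SD. HIF1A and LDHB go down from BxPC-3 to BxPC-3-GR and up from CFPAC-1 to CFPAC-1-GR, PKM and ALDOA go down in both, and GAPDH goes down only from CFPAC-1 to CFPAC-1-GR.

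Set side by side, 20 members were called in at least 1 of the lines. PGM2L1 and P4HA1 were called up in both, and CA9 and ENO2 were called up in BxPC-3-GR and down in CFPAC-1-GR. The matching shares over all genes were not computed, so these counts are not a result about the members. Of all genes, 4.14% were called up and 3.62% down in BxPC-3-GR, and 20.5% and 11.7% in CFPAC-1-GR. After the correction, PGM2L1 (0.65), P4HA1 (0.51) and CA9 (-0.62) were not called in CFPAC-1-GR, and ENO2 (-1.03) was. PGM2L1 and CA9 are low genes, which the correction can overcorrect. As deposited, their ratios of group means, CFPAC-1-GR to CFPAC-1, were 11.35 and 0.190. In BxPC-3-GR the calls of P4HA1 and ENO2 also depended on single libraries, as given above. The difference of response, the change in CFPAC-1-GR minus that in BxPC-3-GR, was tested over all 12 libraries. It was called below 0 in 10 members (27.0%) and above 0 in 4 (10.8%) of the 37 tested, against 14.4% and 23.6% of all 12210 genes tested. After the GC content and length correction these counts were 10 and 2, against 9.1% and 9.31% of all genes. The median of all genes tested was 0.21 as deposited and -0.02 with median-of-ratios scaling, under which 12 members were called below 0 and 3 above, and the share of calls above 0 among all genes went from 62.1% to 46.7%.

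The 10 members with a more negative change in CFPAC-1-GR were CA9 (-5.79), ENO2 (-2.51), ALDOC (-2.33), SLC16A3 (-2.22), NDRG1 (-2.18), PFKL (-1.90), SLC2A1 (-1.85), PFKFB4 (-1.24), GAPDH (-1.23) and ALDOA (-1.07) on the log2 scale. After the correction, CA9 (-4.87), NDRG1 (-2.23), ENO2 (-2.13), ALDOC (-1.74), SLC2A1 (-1.51), SLC16A3 (-1.47) and PFKL (-1.09) were still called, whereas ALDOA (-0.74), PFKFB4 (-0.78) and GAPDH (-0.48) were below the fold criterion, and PGK1 (-1.35), PGM1 (-1.26) and PGM2L1 (-1.26) were called in addition. The 4 members with a more positive change were HIF1A (2.96), LDHB (1.72), PGM2 (1.43) and EGLN1 (1.02), of which HIF1A (1.71) and LDHB (1.38) were still called after the correction. EGLN1 lost its call without BxPC-3-GR replicate 1 (0.99), without CFPAC-1-GR replicate 1 (0.95) and with median-of-ratios scaling (0.75). For PKM and ENO1, lower in both resistant lines, the difference of response was -0.17 (adjusted p = 0.151) and -0.12 (adjusted p = 0.438).

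**Figure D4:**
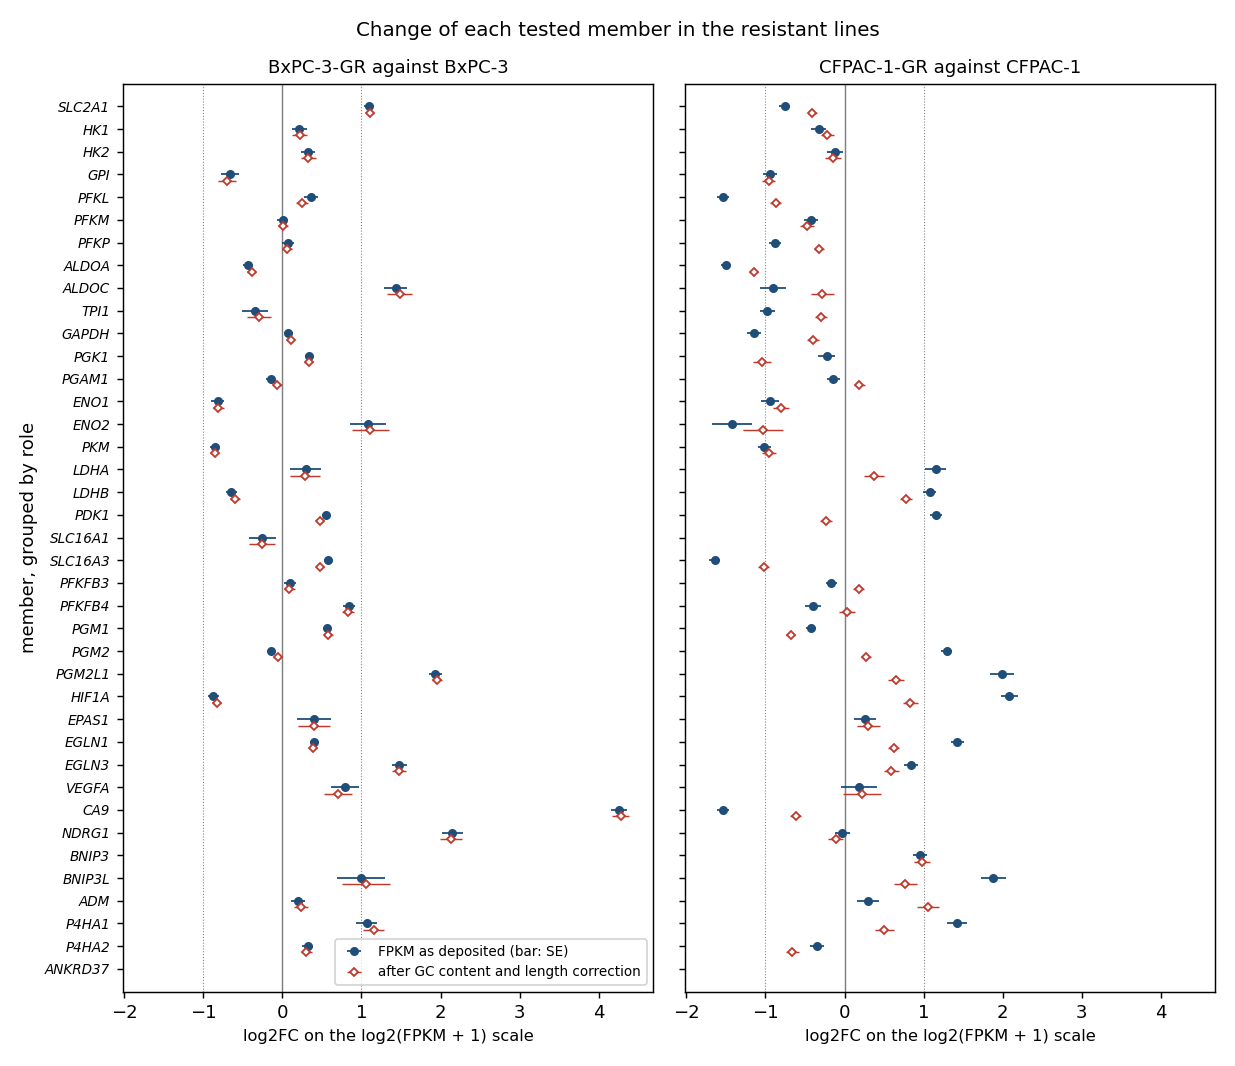
Change (log2FC, x axis) of each member in BxPC-3-GR (left) and CFPAC-1-GR (right), as deposited (filled circles) and after the GC content and length correction (open diamonds), with bars for the SE, dotted lines at a log2FC of 1 and -1, and no point for members below the minimum level. The pairs of symbols nearly coincide in BxPC-3-GR, where CA9 stands out at 4.26, and lie apart in CFPAC-1-GR for HIF1A (2.08 and 0.83), PGM2L1 (1.99 and 0.65) and PDK1 (1.16 and -0.24).

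Between the parental lines, CFPAC-1 had higher levels of most glycolytic genes than BxPC-3 and lower levels of HIF1A. Of 36 members tested, 13 were called higher in CFPAC-1 (36.1%) and 5 lower (13.9%), against 19.8% and 24.7% of all 11842 genes tested. After the correction, 14 were called higher and 4 lower, against 13.5% and 13.1% of all genes. This comparison uses the same parental libraries as the comparisons within the lines. It also followed GC content, with Spearman's rho of 0.628 over all genes and 0.597 over the 36 members. BNIP3 differed most, near 0 in BxPC-3 and at 19.1 ± 1.14 FPKM in CFPAC-1 (log2FC 4.23, SE 0.06, adjusted p = 6.9e-08). ENO2 (log2FC 3.28, SE 0.21, adjusted p = 8e-06) and ALDOC (log2FC 3.26, SE 0.11, adjusted p = 6.12e-07) followed, and SLC16A3, CA9, SLC2A1, PFKFB3, PFKFB4, PFKP, ALDOA, ENO1, PFKL and P4HA2 were also called higher. After the correction ALDOA (0.92) and PFKL (0.57) were not called, CA9 was at 1.05, and PGK1 (1.61), LDHA (1.31) and PDK1 (1.06) were called higher. ADM, low and with overlapping groups, did not pass as deposited (-0.22) and was called lower after the correction (-1.14). The largest differences in the other direction were PGM2 (log2FC -2.62, SE 0.06, adjusted p = 1.65e-07), HIF1A (log2FC -2.17, SE 0.10, adjusted p = 1.56e-06) and LDHB (log2FC -1.95, SE 0.07, adjusted p = 6.67e-07), with EPAS1 and BNIP3L also called lower. The call of BNIP3L (-1.05) was lost without BxPC-3 replicate 1 (-0.99), without CFPAC-1 replicate 1 (-0.96) and with median-of-ratios scaling (-0.94), and that of P4HA2 (1.04) without BxPC-3 replicate 2 (0.98) or CFPAC-1 replicate 3 (0.96). After the correction the log2FC of HIF1A was -0.94, below the fold criterion, that of BNIP3L was 0.050, and that of GAPDH turned from 0.54 to -0.37. Of the 10 members of upper glycolysis, 6 then passed the adjusted p upward and 3 downward, namely TPI1 (-0.62), HK1 (-0.27) and HK2 (-0.27). HIF1A had 89.9 ± 8.94 FPKM in CFPAC-1-GR and 95.4 ± 7.56 FPKM in BxPC-3, a pair of groups that was not tested. SLC2A1 had 61.0 ± 2.80 FPKM in CFPAC-1-GR and 56.1 ± 2.82 FPKM in BxPC-3-GR, also not tested.

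The makeup of the enzyme pairs shifted with the lines. ALDOC made up 2.94 ± 0.49% of the summed aldolase FPKM in BxPC-3 and 12.7 ± 1.98% in BxPC-3-GR, while CFPAC-1 had 13.2 ± 1.504% and CFPAC-1-GR 18.5 ± 3.16% (SD, n = 3). The ranges did not overlap in either line. LDHA made up 22.6 ± 4.96% of the lactate dehydrogenase FPKM in BxPC-3 and 35.8 ± 2.86% in BxPC-3-GR, with the highest parental library at 28.3% and the lowest resistant one at 32.9%. In the CFPAC-1 lines this share was 62.9 ± 5.33% and 64.1 ± 3.03%, with overlapping ranges, since both subunits were higher there. PGM2L1 went from 1.41 ± 0.39% to 9.30 ± 0.35% of the phosphoglucomutase FPKM in the BxPC-3 lines and from 1.06 ± 0.18% to 11.9 ± 2.81% in the CFPAC-1 lines. HIF1A went from 88.7 ± 0.55% to 75.6 ± 5.92% of the sum of HIF1A and EPAS1 in the BxPC-3 lines and from 80.6 ± 0.91% to 93.5 ± 1.73% in the CFPAC-1 lines. HK1 and HK2 kept close to equal shares of their own sum, with HK1 between 51.4% and 56.0% in the group means. This sum leaves out HKDC1, a hexokinase-family gene that is not a member. HKDC1 had 27.4 FPKM in CFPAC-1 and 19.3 in CFPAC-1-GR, above HK1 and HK2 in both, but 0.068 in BxPC-3 and 0.447 in BxPC-3-GR. No test was made on these shares, which were taken from FPKM as deposited, without the GC content and length correction. In CFPAC-1-GR the log2FC of HIF1A went from 2.08 to 0.83 with that correction, and that of PGM2L1 from 1.99 to 0.65. Groups of 3 and 3 libraries cannot reach an exact permutation p below 0.1.

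**Figure D5:**
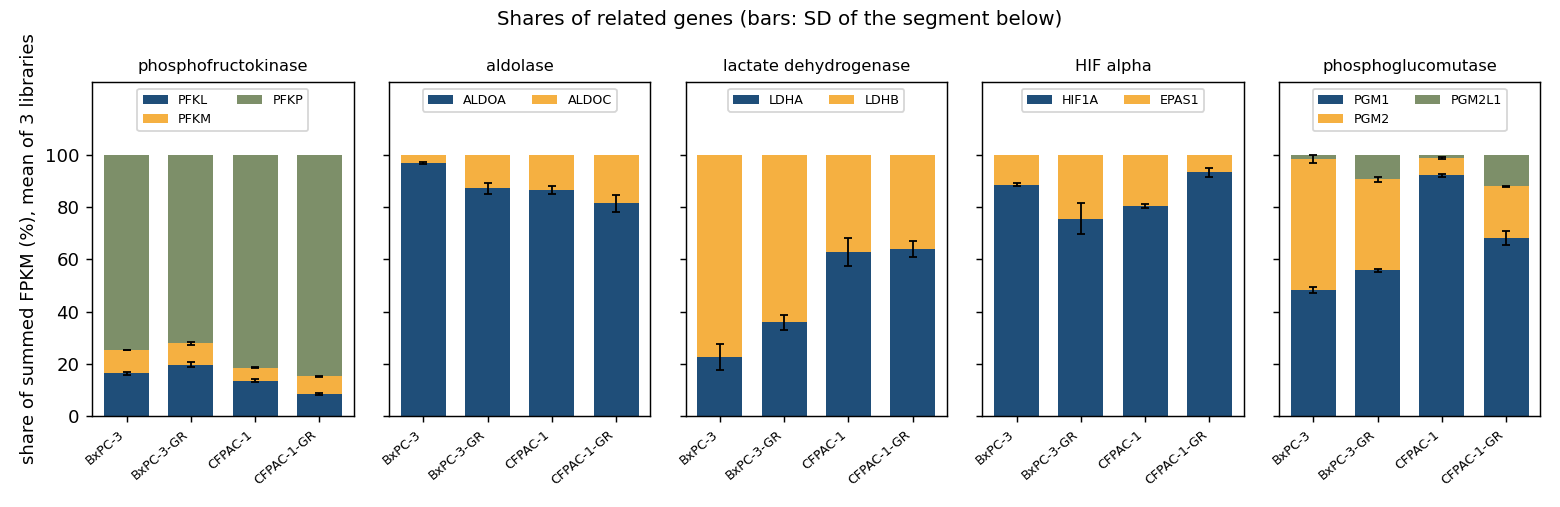
Share of each gene in the summed FPKM of its family (percent, mean of 3 libraries) for phosphofructokinase, aldolase, lactate dehydrogenase, HIF alpha and phosphoglucomutase in the 4 lines, with error bars for the SD of the segment below. ALDOC and PGM2L1 take a larger share in both resistant lines, and LDHA does so in BxPC-3-GR.

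The summed FPKM of the 15 glycolytic enzymes from hexokinase to pyruvate kinase was 1791 ± 109 in BxPC-3, 1474 ± 22.6 in BxPC-3-GR, 3356 ± 327 in CFPAC-1 and 1796 ± 80.1 in CFPAC-1-GR (SD, n = 3). The resistant libraries lay below the parental ones in both lines, and the sum is set mainly by ENO1, GAPDH and PKM. It was taken from FPKM as deposited and does not include HKDC1. In CFPAC-1-GR the correction changed the log2FC of ENO1 from -0.94 to -0.80, of GAPDH from -1.15 to -0.40 and of PKM from -1.02 to -0.96.

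Other genes of these pathways were taken from lists of their own, and their counts are to be read against the shares of all genes, which for BxPC-3-GR were 4.14% up and 3.62% down, for CFPAC-1-GR 20.5% and 11.7%, and for the latter after the correction 4.69% and 3.97%. Of 31 other hypoxia-response targets, 24 were tested in BxPC-3-GR, with 5 called up and 2 down, and 17 passed the adjusted p upward and 4 downward. DDIT4, an inhibitor of mTOR signaling, had the largest increase (log2FC 1.66, SE 0.12, adjusted p = 0.000109), and STC1, which encodes the hormone stanniocalcin, the largest decrease (log2FC -2.56, SE 0.07, adjusted p = 4.17e-06). In CFPAC-1-GR 21 were tested, with 8 called up and 1 down, and after the correction 0 and 1. PLOD2, a collagen lysyl hydroxylase, had a log2FC of 1.80 (0.43 corrected), and IGFBP3, a binding protein of insulin-like growth factors, -1.73 (-1.84 corrected).

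Of 27 other glycolysis and glucose transport genes, 9 were tested in BxPC-3-GR with 1 called up, the transporter SLC2A10 (log2FC 1.19), and 14 in CFPAC-1-GR with 5 up and 1 down. SLC2A3, the transporter GLUT3, had a log2FC of 1.82 in CFPAC-1-GR (1.25 corrected, still called), and BSG, the chaperone of the monocarboxylate transporters, -1.29 (-0.47 corrected). Of 12 pyruvate oxidation genes, 11 were tested in each line. In BxPC-3-GR the pyruvate dehydrogenase phosphatases went apart, with PDP1 called up (log2FC 1.99, SE 0.08, adjusted p = 1.27e-05) and PDP2 called down (log2FC -1.06, SE 0.29, adjusted p = 0.0215). In CFPAC-1-GR 2 were called up, led by DLD (log2FC 1.58, 0.43 corrected), and 0 after the correction.

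Of 17 glycogen and UDP-glucose genes, 16 were tested in each line. The glycogen-targeting phosphatase subunit PPP1R3B was the 1 call in BxPC-3-GR (log2FC 1.39). In CFPAC-1-GR 5 were called up and 2 down, and the largest decrease was that of the phosphorylase PYGB (log2FC -1.78, -1.15 corrected). After the correction, 0 were called up and 2 down. Of 8 pentose phosphate genes, 0 were called in BxPC-3-GR, where 4 passed limma's adjusted p upward and 1 downward. In CFPAC-1-GR 1 was called up (RPE, log2FC 1.11, -0.03 corrected) and 3 down, led by PGLS (log2FC -1.70, -0.80 corrected). Of 14 other HIF pathway regulators, 12 were tested in each line. In BxPC-3-GR 0 were called by limma, with 4 passing the adjusted p in each direction. In CFPAC-1-GR the ubiquitin ligase subunits CUL2 (log2FC 1.69, 0.59 corrected) and ELOB (log2FC -1.501, -0.51 corrected) were called, and 0 were called after the correction.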

How the data were processed

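RNA of the 12 libraries was sequenced by the authors, who deposited 1 table of FPKM values per gene and library for GRCh38 with Ensembl release 91, in which fragments are divided by gene length and mapped fragments. The submitters' processing notes list Trimmomatic 0.27, FastQC 0.10.1 and TopHat2 2.0.8, and hg19 beside GRCh38. FPKM values are no counts, so limma 3.58.1 in R 4.3.3 (lmFit, eBayes) was run on log2(FPKM + 1) over all genes averaging 1 FPKM or more in the fitted libraries, and p values were adjusted by Benjamini-Hochberg over all of them. Fits within a line used 6 libraries and the difference of response 12. GC content and length of 57980 genes came from GENCODE 29, and log ratios were corrected with natural splines of 5 degrees of freedom. Other alternatives were a pseudocount of 0.1, no filter, median-of-ratios scaling, a replicate block, all 12 libraries in 1 fit and each library left out. Implied depths came from the FPKM value of 1 fragment. The members and lists were chosen with earlier results of these data known. Genes described with values in every library were those called in both lines or in the difference of response, the 5 largest changes per line, the 3 largest per direction between parental lines, and GAPDH. VEGFA, EPAS1 and LDHA were added after their values were seen. Some genes of the related and marker lists are not reported here. Figures were drawn with matplotlib 3.10.9.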

Additional observations from a re-analysis of the deposited data

Results flagged for a closer look

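The change upon acquired resistance differed between the lines in 14 members, by a test of the difference itself (limma, 12 libraries). The difference, CFPAC-1-GR minus BxPC-3-GR on the log2 scale, was -5.79 for CA9 (adjusted p = 5.2e-10), -2.51 for ENO2 (adjusted p = 9.03e-05), -2.33 for ALDOC (adjusted p = 4.65e-06), -2.22 for SLC16A3 (adjusted p = 3.86e-09), -2.18 for NDRG1 (adjusted p = 6.63e-07), -1.90 for PFKL (adjusted p = 1.02e-07) and -1.85 for SLC2A1 (adjusted p = 1.75e-08). These 7 were also called with the correction for GC content and length. The value was -1.24 for PFKFB4 (adjusted p = 4.54e-06), -1.23 for GAPDH (adjusted p = 1.24e-06) and -1.07 for ALDOA (adjusted p = 3.25e-07), which were not called once corrected. For the other direction, it was 2.96 for HIF1A (adjusted p = 1.28e-08) and 1.72 for LDHB (adjusted p = 7.58e-08), both also called after the correction, and 1.43 for PGM2 (adjusted p = 6.83e-08) and 1.02 for EGLN1 (adjusted p = 3.09e-06), which were not. What sets these differences was not tested.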

How the results depend on the processing

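With median-of-ratios scaling, 12 members were called down in CFPAC-1-GR in place of 7. With the GC content and length correction, alone or with the replicate block, 1 was called up and 4 down in CFPAC-1-GR, and 2 above 0 in the difference of response. Either way the direction turned in CFPAC-1-GR for PDK1 (-0.24) and PFKFB4 (0.032), between the parental lines for GAPDH (-0.37), PDK1 (1.06), EGLN1 (0.59) and BNIP3L (0.050), and in the difference of response for TPI1 (0.023), PDK1 (-0.67), PFKFB3 (0.11), PGM2L1 (-1.26) and BNIP3L (-0.24). Members that did not pass as deposited and were not called afterwards turned too, namely PGAM1 (0.19) and PFKFB3 (0.18) in CFPAC-1-GR, TPI1 (-0.62), PKM (-0.02) and P4HA1 (0.73) between the parental lines, and ENO1 (0.02) and P4HA1 (-0.61) in the difference. Of these, limma's adjusted p after the correction was below 0.05 for PGAM1 (0.0473), TPI1 (0.000603) and P4HA1 (0.00405 between the parental lines, 0.0171 in the difference). The causes were not tested. The replicate block alone left every count of members as it was (BxPC-3-GR 8 up and 0 down, CFPAC-1-GR 9 and 7). The deviations of same-numbered libraries were weakly correlated (-0.143 to 0.0959), which cannot show whether such libraries were prepared together. The main fits used the numbers as names of libraries and did not pair them. With 1 library left out, 6 to 9 members were called up in BxPC-3-GR, while CFPAC-1-GR had 9 to 10 up and 6 to 10 down. Over all comparisons, leaving out a library ended 10 calls of single members and added 14, and ENO2 in BxPC-3-GR had no test without BxPC-3-GR replicate 3. No tested member that passed the adjusted p in the main fit, or was called with a library left out, changed direction. Changes of direction were not counted for the other members. Depth limits the lowest members most, among them BNIP3 and CA9 in BxPC-3, with under 10 implied fragments in each library.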
